A study of Mus musculus with 21 samples.

Results

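Bcl2, Bcl2l1, Bcl2l2, Mcl1, Bax, Bak1 and Bok are the survival and effector genes of the BCL2 family. They were taken by symbol from the deposited gene counts, 7 of 24047 genes, and all 7 passed the filter on low counts in both experiments of the series. The series sequenced RNA from SMB21, a mouse cell line that models medulloblastoma of the sonic hedgehog (SHH) type, a tumour of the cerebellum, to ask what inhibitors of class I histone deacetylases (HDACs) do to it. All results below are read counts of messenger RNA, and no protein was measured.

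BCL2-family proteins decide at the outer mitochondrial membrane whether a stressed cell undergoes apoptosis. The survival proteins BCL2, BCL-XL (from Bcl2l1), BCL-W (from Bcl2l2) and MCL1 bind and hold back the effectors BAX and BAK (from Bak1), which otherwise form pores that release cytochrome c, and BH3-only proteins such as PUMA, BIM and BMF relieve that restraint. BOK resembles BAX and BAK in sequence but is little restrained by the survival proteins and is kept low by proteasomal degradation. Cerebellar granule neuron progenitors, the cells from which SHH medulloblastoma arises, are known to need BCL-XL to survive and BAX to die after DNA damage.

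Cells received JNJ (quisinostat, an inhibitor of HDACs) for 2 h, its solvent DMSO for 2 h, JNJ for 24 h or DMSO for 24 h. Other cells received a virus with a short hairpin RNA (shRNA) against Hdac1 (shHdac1), against Hdac2 (shHdac2) or against luciferase (shLuc), and puromycin to select infected cells. The 7 groups have 3 libraries each, 21 in all, numbered 1 to 3 in the labels. The dose of JNJ, the number of hairpins per gene and the time after infection are not stated in the labels, and all groups come from the same line. The labels do not say whether the 3 libraries of a group are separate cultures, so p-values measure only how far libraries vary, which may be technical. In bulk RNA, fewer cells that express a gene and less of its RNA per cell cannot be told apart.

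Libraries held 23094799 to 39341784 counted reads. Hdac1 averaged 30.4 ± 2.07 CPM (counts scaled to library size) in shHdac1 and 94.0 ± 6.59 CPM in shLuc, and Hdac2 averaged 49.9 ± 3.07 CPM in shHdac2 and 316 ± 25.1 CPM in shLuc (SD, n = 3 each), so each targeted gene was lower in the libraries labelled for it. All 8 listed markers of the granule lineage and of hedgehog signalling were detected, with a summed level of 837 to 991 CPM in JNJ 24 h and 1477 to 1567 CPM in DMSO 24 h. Markers of each other cell type summed to at most 54.8 CPM in a library, and Mog, which marks oligodendrocytes, was at 0 in all 3 hairpin groups. The hairpin libraries numbered 3 stood apart: the chi-square between the counts of replicates 1 and 2 was 3.58 to 8.76 per gene in these groups, and between either of them and replicate 3 it was 44.9 to 74.9. The 2 h libraries also lay far apart, at 111 to 312 in JNJ 2 h, the highest between replicates 1 and 3, and at 94.4 to 174 in DMSO 2 h. Genes called at 2 h were 1982, and 3365 without JNJ 2 h replicate 3. Replicates 1 and 2 of a hairpin group are close to each other, and hairpin results are given with and without replicate 3 where it decides them.

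Read per length, Bok, Bax and Mcl1 were the most abundant of the 7 transcripts. In DMSO 24 h, Bok stood at 61.5 ± 10.7, Bax at 51.5 ± 2.53 and Mcl1 at 48.8 ± 3.41 CPM per kilobase of exon (SD, n = 3). Bcl2l1 followed at 19.1 ± 3.43, Bak1 at 13.8 ± 3.08, Bcl2l2 at 8.82 ± 1.47 and Bcl2 at 7.37 ± 1.22 CPM per kilobase. The mean ± SD ranges of neighbours overlapped within the first 3, within the pair Bcl2l1 and Bak1, and within the pair Bcl2l2 and Bcl2, and not between these sets. In JNJ 24 h the order was different: Bax led with 60.7 ± 4.44, Mcl1 had 38.3 ± 2.78, Bcl2l1 22.6 ± 8.73 and Bok 18.7 ± 7.37 CPM per kilobase, and Bak1 was among the 3 lowest, with Bcl2 and Bcl2l2, at 5.93 ± 2.00.

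Across the groups, Bok varied most in the ratio of its highest to its lowest mean. Its mean CPM, from low to high, was 34.4 ± 13.6 in JNJ 24 h, 110 ± 7.82 in shHdac1, 113 ± 19.6 in DMSO 24 h, 114 ± 1.35 in shHdac2, 118 ± 9.24 in JNJ 2 h, 137 ± 20.6 in shLuc and 146 ± 31.5 in DMSO 2 h. Apart from the step above JNJ 24 h, the mean ± SD ranges of neighbours in that order overlapped. Bax varied least, with group means of 77.6 ± 1.42 CPM in shHdac2 to 95.6 ± 7.00 CPM in JNJ 24 h. Group means were 44.3 to 82.0 CPM for Bcl2, 70.1 to 110 CPM for Bcl2l1, 24.8 to 48.7 CPM for Bcl2l2, 131 to 252 CPM for Mcl1 and 14.3 to 45.0 CPM for Bak1.

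**Figure D1:**
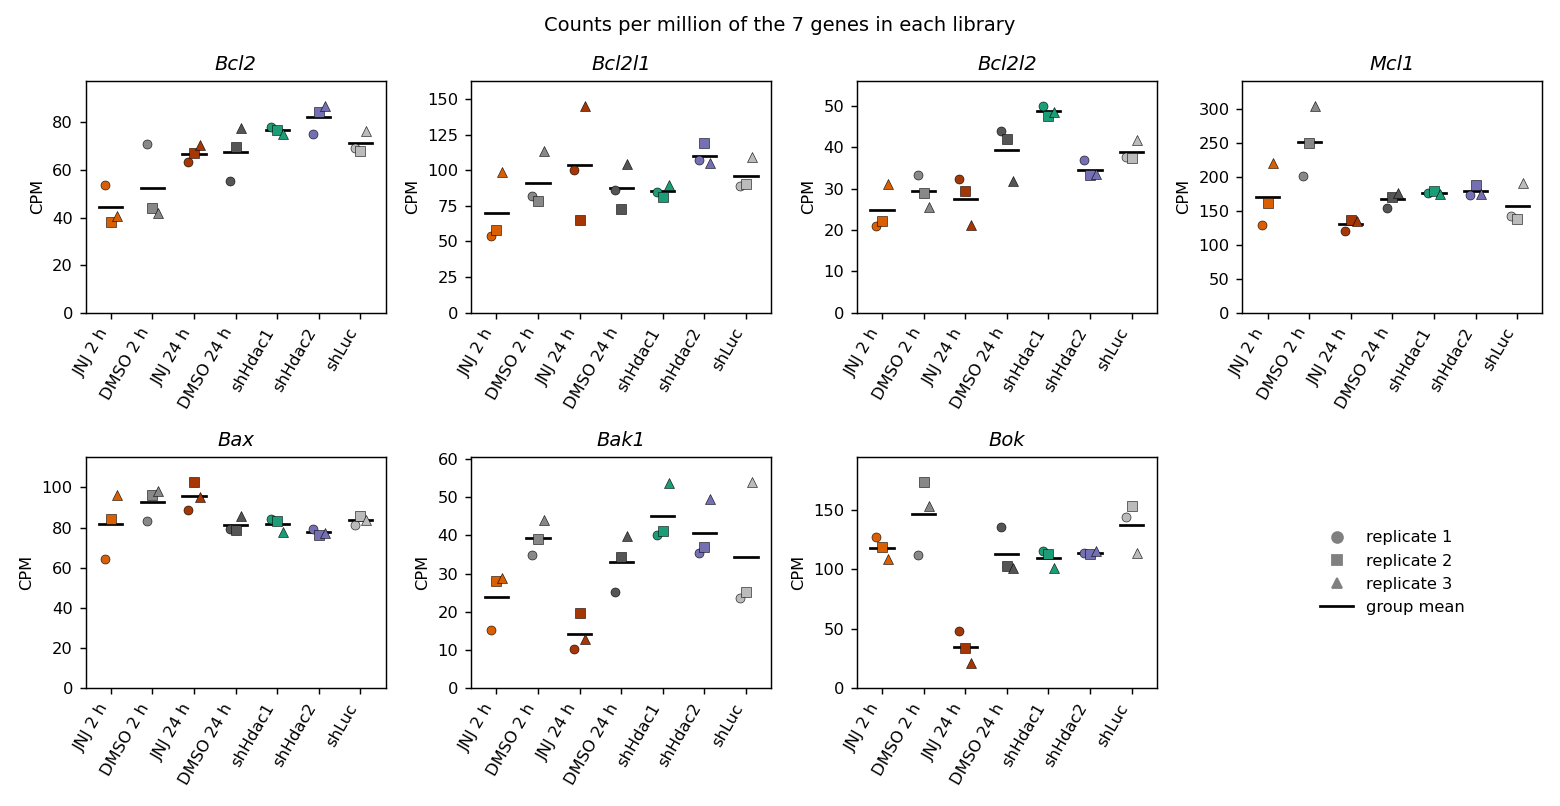
Depth-scaled counts (CPM, linear axis from 0, scaled over all 21 libraries) of the 7 genes in the 7 groups, with 1 point per library, a symbol for each replicate number and a bar at the group mean. The 3 JNJ 24 h points of Bok, at 21.1 to 48.2 CPM, lie below every other Bok point, and shLuc replicate 3 lies apart from the other shLuc libraries for Bak1 and Mcl1.

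With JNJ, the survival genes gave no called change at either time, and the 2 calls among the 7 genes were effectors that fell at 24 h, Bok and Bak1. Calls need an adjusted p under 0.05 (edgeR quasi-likelihood test, Benjamini-Hochberg over all genes tested). At 24 h, 2 of 7 genes were called lower, where 15.1% of all 14467 genes tested were, and 0 of 7 were called higher, where 18.1% of all genes were. The 7 genes had a median log2 change of -0.33, and all genes tested one of 0.01. At 2 h, edgeR called 0 of 7, with backgrounds of 9.11% of all genes called higher and 4.59% called lower, and DESeq2 and limma-voom also called 0; 2 of the 7, Mcl1 and Bak1, had an unadjusted p under 0.05. Their median log2 change at 2 h was -0.30, and that of all genes 0.03.

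Mcl1, a survival gene whose RNA and protein are both short-lived, was lower in the JNJ libraries at both times without passing the test. At 2 h it stood at 130, 161 and 220 CPM in JNJ libraries 1 to 3 and at 201, 251 and 305 CPM in DMSO libraries 1 to 3. Each JNJ library was below the DMSO library of the same number, but the groups overlapped, since JNJ replicate 3 was above DMSO replicate 1. The log2 change was -0.56 ± 0.20 (SE, adjusted p = 0.0840), and it passed in 4 of 15 alternatives. Without JNJ 2 h replicate 3 it was -0.78 (adjusted p = 0.0114). It also passed with upper quartile scaling (adjusted p = 0.0366), with a replicate block (0.0132) and in the fit of all 21 libraries (0.0269). Over all alternatives the adjusted p ran from 0.0114 to 0.269. At 24 h Mcl1 stood at 120, 137 and 136 CPM in JNJ and at 154, 171 and 176 CPM in DMSO. The groups did not overlap, and the log2 change of -0.33 ± 0.20 did not pass (adjusted p = 0.222), except in a fit of these 2 groups alone (-0.34, adjusted p = 0.0380; 0.0380 to 0.464 over all alternatives).

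Bcl2l1, which encodes BCL-XL, was spread widely among libraries of 1 group. At 24 h it had 100.1, 65.3 and 145 CPM in JNJ and 86.3, 72.7 and 104 CPM in DMSO, with overlap and both extremes in JNJ. Its log2 change was 0.26 at 24 h, with a 95% interval of -0.38 to 0.90 (adjusted p = 0.536), and turned to -0.07 without JNJ 24 h replicate 3. At 2 h it was -0.38 (adjusted p = 0.432), from 54.0, 57.8 and 98.5 CPM in JNJ and 81.9, 78.5 and 113 CPM in DMSO.

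Bcl2l2, which encodes BCL-W, had 32.4, 29.4 and 21.2 CPM in JNJ 24 h and 44.1, 42.1 and 31.9 CPM in DMSO 24 h. Every JNJ library was below the DMSO library of the same number, and the ranges just overlapped. The log2 change was -0.50 ± 0.22, which missed the threshold (adjusted p = 0.105), except in the fit of all 21 libraries (-0.50, adjusted p = 0.0289; 0.0289 to 0.318 over all alternatives). Bcl2 itself did not move at 24 h beyond its spread: 63.2, 66.9 and 70.4 CPM in JNJ stood against 55.4, 69.7 and 77.5 CPM in DMSO, a log2 change of 0.00 with an interval of -0.47 to 0.48 (adjusted p = 0.992). That interval leaves a change of up to about this size in either direction undetected. At 2 h the log2 changes of Bcl2 and Bcl2l2 were both -0.24, with adjusted p of 0.507 and 0.504.

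Among the effectors, Bok fell furthest. It had 48.2, 34.1 and 21.1 CPM in JNJ 24 h libraries 1 to 3 and 136, 103 and 101 CPM in DMSO 24 h libraries 1 to 3. Even the highest JNJ library was below the lowest DMSO library by a wide margin. The log2 change was -1.70 ± 0.26 (SE), with a 95% interval of -2.27 to -1.13, a fold of 0.308 (adjusted p = 0.000552). The call was kept under all 15 alternatives, with adjusted p from 1.77e-08 to 0.00312. Bak1, the second gene called, had 10.3, 19.6 and 12.9 CPM in JNJ 24 h and 25.1, 34.3 and 39.8 CPM in DMSO 24 h. These groups did not overlap either, and each JNJ library was below the DMSO library of its number. The log2 change was -1.20 ± 0.29, with an interval of -1.82 to -0.57, a fold of 0.437 (adjusted p = 0.00722), kept under all 15 alternatives (adjusted p from 0.000424 to 0.0332).

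Bax, the third effector, did not follow them. It had 89.0, 103 and 95 CPM in JNJ 24 h and 79.3, 78.6 and 85.8 CPM in DMSO 24 h, so all JNJ libraries were above all DMSO libraries. The log2 change of 0.25 ± 0.16 did not pass (interval -0.10 to 0.60, adjusted p = 0.252), except with scaling by library totals (0.41, adjusted p = 0.0449; 0.0449 to 0.496 over all alternatives), which also puts the median of all genes at 0.17, against 0.01 by TMM, the scaling used for the calls.

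At 2 h, Bok had 127, 118 and 109 CPM in JNJ and 112, 174 and 154 CPM in DMSO. The groups overlapped, with a log2 change of -0.30 ± 0.26 (adjusted p = 0.466). Bak1 had 15.3, 27.99 and 28.8 CPM in JNJ 2 h and 34.9, 39.1 and 44.0 CPM in DMSO 2 h. The groups did not overlap, but the log2 change of -0.71 ± 0.29 did not pass (adjusted p = 0.122). Bax had 64.4, 84.1 and 96.4 CPM in JNJ 2 h and 83.3, 96.2 and 98.4 CPM in DMSO 2 h, a log2 change of -0.18 (adjusted p = 0.501).

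**Figure D2:**
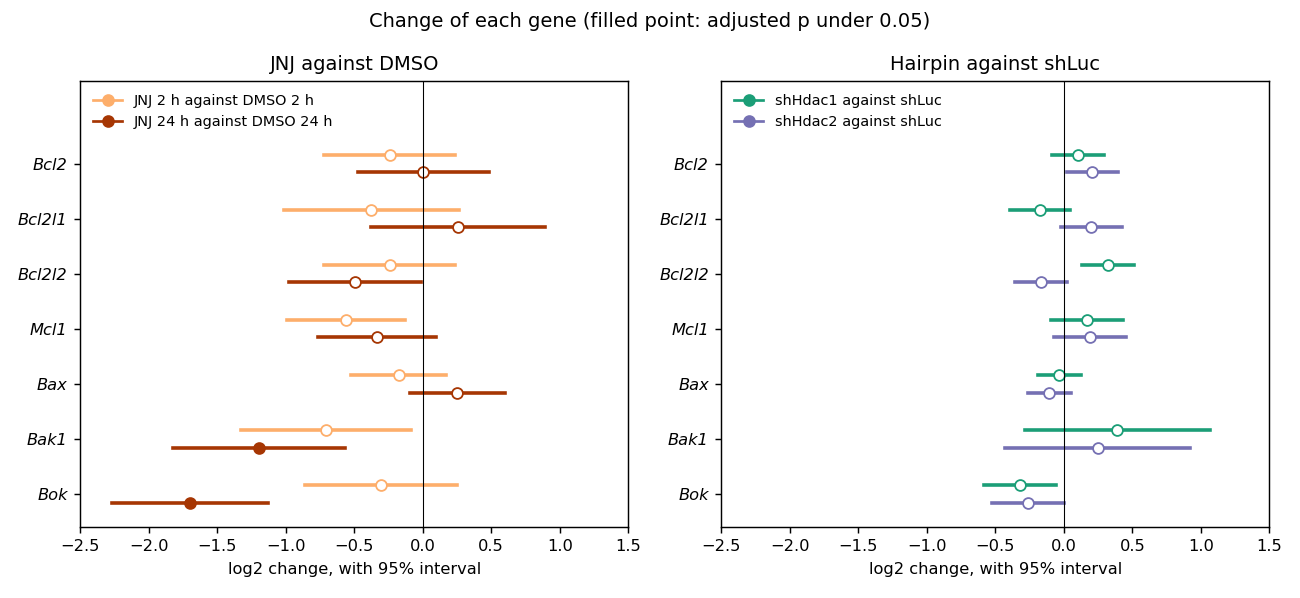
Log2 change of each of the 7 genes with its 95% interval (edgeR), for JNJ against DMSO at 2 h and 24 h in the left panel and for shHdac1 and shHdac2 against shLuc in the right panel, where a filled point has an adjusted p under 0.05. Bok at -1.70 and Bak1 at -1.20, both at 24 h, are the filled points.

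The promoters of the 3 effector genes are shown because Bok and Bak1 fell at 24 h and Bax did not. They are RefSeq windows on the GRCm38.p6 build, written 5′ to 3′ on the gene's strand, each reaching from upstream of the start that RefSeq gives to just past it: Bok at chr1:93685325-93685624 on the plus strand, Bak1 at chr17:27028578-27028877 on the minus strand and Bax at chr7:45466849-45467148 on the minus strand. Capitals mark matches, on either strand, to GGGCGG (the GC box, read as CCGCCC on the other strand), CACGTG (an E-box), TGACGTCA (the cyclic AMP response element), TATAAA (the TATA box) and CCAAT.
Bok: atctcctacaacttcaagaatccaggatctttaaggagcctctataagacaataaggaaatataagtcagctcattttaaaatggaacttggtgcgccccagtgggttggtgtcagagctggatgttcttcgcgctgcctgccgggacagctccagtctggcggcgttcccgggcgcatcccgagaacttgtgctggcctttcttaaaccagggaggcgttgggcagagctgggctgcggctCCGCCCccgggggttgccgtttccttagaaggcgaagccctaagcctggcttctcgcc
Bak1: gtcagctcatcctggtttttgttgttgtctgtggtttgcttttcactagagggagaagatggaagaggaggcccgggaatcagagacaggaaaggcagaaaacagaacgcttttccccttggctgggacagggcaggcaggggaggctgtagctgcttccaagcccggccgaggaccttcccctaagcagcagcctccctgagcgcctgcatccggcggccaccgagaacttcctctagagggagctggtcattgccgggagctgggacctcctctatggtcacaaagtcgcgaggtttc
Bax: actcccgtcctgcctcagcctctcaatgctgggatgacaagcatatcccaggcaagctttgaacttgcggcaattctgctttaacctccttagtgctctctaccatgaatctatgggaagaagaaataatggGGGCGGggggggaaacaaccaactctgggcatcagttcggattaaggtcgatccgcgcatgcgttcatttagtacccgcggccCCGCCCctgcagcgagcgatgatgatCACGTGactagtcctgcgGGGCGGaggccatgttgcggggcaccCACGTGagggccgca
The last bases of the Bak1 and Bax windows were found in a GENCODE transcript of the gene, and those of the Bok window were not. Bok had 1 GC box and none of the other motifs. Bak1 had none of the 5. Bax had 3 GC boxes and 2 E-boxes. Of 32851 RefSeq promoter windows of this kind, 35.7% hold GGGCGG, 7.15% CACGTG, 1.79% TGACGTCA, 13.6% TATAAA and 37.4% CCAAT. G and C made up 56.3% of the Bok window, 58.3% of the Bak1 window and 57.3% of the Bax window, and the median over all windows is 52.7%. A match is a run of letters and says nothing of binding.

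Taken per length, the makeup of the effector transcripts was different at 24 h. Bax, Bak1 and Bok together summed to 86.9, 92.0 and 77.1 CPM per kilobase in JNJ 24 h libraries 1 to 3 and to 135, 120 and 126 in DMSO 24 h libraries 1 to 3. Bax made up 71.4 ± 6.61% of that sum in JNJ 24 h and 40.7 ± 3.00% in DMSO 24 h (SD, n = 3 each). Bok made up 21.7 ± 7.77% in JNJ 24 h and 48.3 ± 5.81% in DMSO 24 h. Neither share overlapped between the groups, and no test was run on these shares, which are built from the same values as the calls above. The survival transcripts summed to 74.3 ± 8.26 CPM per kilobase in JNJ 24 h and 84.1 ± 5.17 in DMSO 24 h. Mcl1 had the largest share of that sum, 51.9 ± 6.09% in JNJ 24 h and 58.0 ± 2.03% in DMSO 24 h, and the libraries overlapped. At 2 h, Bok made up 51.3 ± 7.47% of the effector sum in JNJ and 51.1 ± 3.76% in DMSO.

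**Figure D3:**
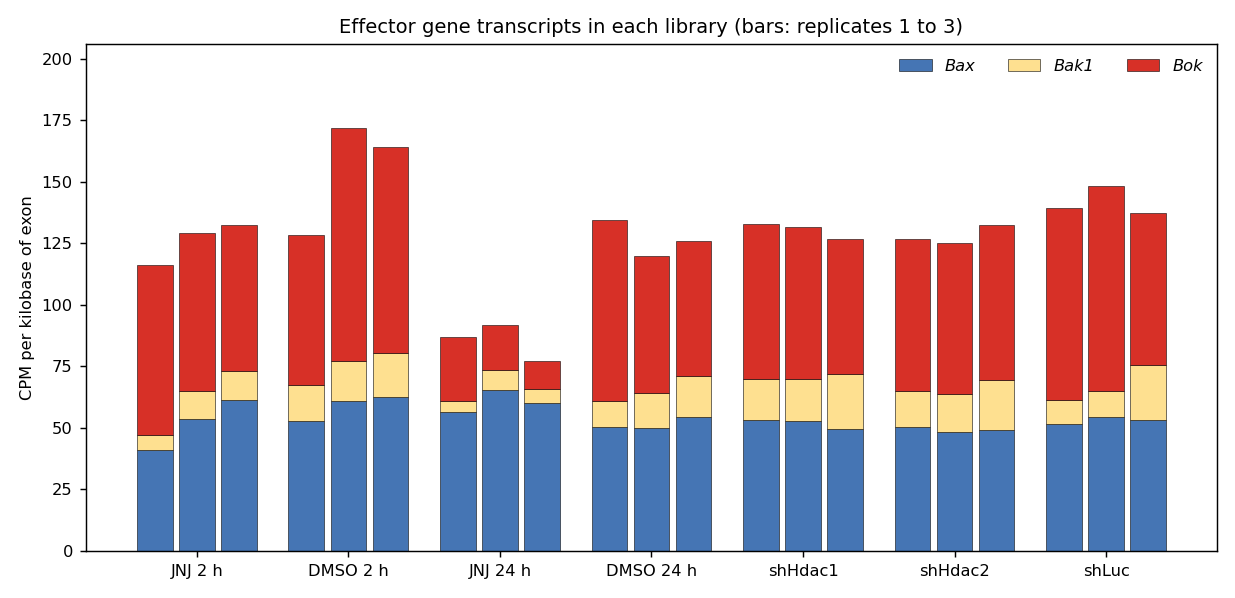
Stacked CPM per kilobase of exon (linear axis from 0) of Bax, Bak1 and Bok in each of the 21 libraries, with 3 bars per group for replicates 1 to 3. The JNJ 24 h bars, at 77.1 to 92.0, are shorter than all others, and their Bok segments make up 14.8 to 30.1% of the bar, against 43.6 to 54.8% in DMSO 24 h.

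The difference between the JNJ effect at 24 h and that at 2 h was tested for each gene in the same fit. Bok was the 1 gene of 7 called, in the lower direction, where 1.73% of all genes were called lower and 2.51% higher. Its difference was -1.40 ± 0.37 on the log2 scale, at an adjusted p of 0.04996, and it did not pass under 12 of 20 alternatives (adjusted p from 0.00788 to 0.122 over all 20). These were scaling by library totals (-1.25, adjusted p = 0.0845), scaling by upper quartile (-1.22, adjusted p = 0.0805) and leaving out any 1 library except JNJ 2 h replicate 3 or JNJ 24 h replicate 1 (adjusted p from 0.0670 to 0.122). For Bak1 the difference was -0.49 (adjusted p = 0.514), so its change at 24 h was not shown to differ from that at 2 h. Bax had 0.43 (adjusted p = 0.296) and Bcl2l1 0.63 (adjusted p = 0.403).

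Between the DMSO groups, 24 h against 2 h, edgeR called 0 of 7 genes and 0 of all genes (0% in each direction), with 1417 of 14467 genes at an unadjusted p under 0.05. DESeq2 called 16 genes and limma-voom 2, none of them among the 7. Mcl1 was the only gene of the 7 at an unadjusted p under 0.05: it had 154, 171 and 176 CPM in DMSO 24 h and 201, 251 and 305 CPM in DMSO 2 h. The groups did not overlap, and the log2 change was -0.56 (adjusted p = 0.507).

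Neither hairpin gave a called change in any of the 7 genes. In shHdac1 against shLuc, edgeR called 0 of 7, with 0.154% of 13612 genes called higher and 0.595% lower. DESeq2 called 1 of them, Bcl2l2, and limma-voom 0, and 2 (Bcl2l2 and Bok) had an unadjusted p under 0.05. In shHdac2 against shLuc, edgeR called 0 of 7, with 0.654% of genes called higher and 1.03% lower. DESeq2 and limma-voom called 0, and 2 (Bcl2 and Bok) had an unadjusted p under 0.05. Over all genes, 102 were called in shHdac1 and 229 in shHdac2, and with the replicate number as a block 523 and 801, with still 0 of the 7.

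The effectors Bok and Bak1 turned on shLuc replicate 3. Bok had 116, 113 and 101 CPM in shHdac1, 114, 113 and 115 CPM in shHdac2 and 144, 153 and 114 CPM in shLuc. ShLuc replicates 1 and 2 were above all 6 knockdown libraries, and shLuc replicate 3 was among them. The log2 change was -0.32 ± 0.12 in shHdac1 (adjusted p = 0.284) and -0.26 ± 0.12 in shHdac2 (adjusted p = 0.310). Bak1 had 40.1, 41.2 and 53.8 CPM in shHdac1, 35.3, 37.0 and 49.6 CPM in shHdac2 and 23.8, 25.1 and 54.1 CPM in shLuc. In each of the 3 groups replicate 3 was the highest, and the shLuc one was above all others. The log2 change was 0.39 in shHdac1 (interval -0.29 to 1.07, adjusted p = 0.707) and 0.25 in shHdac2 (interval -0.43 to 0.92, adjusted p = 0.748).

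Without shLuc replicate 3, 4 of 7 genes were called in each knockdown. In shHdac1, Bcl2l2 (log2 0.37, adjusted p = 0.0211), Mcl1 (0.33, adjusted p = 0.0200) and Bak1 (0.87, adjusted p = 0.0247) were higher and Bok was lower (-0.44, adjusted p = 0.0143), where 4.36% of all genes were called higher and 6.59% lower. In shHdac2, Bcl2l1 (0.31, adjusted p = 0.0497), Mcl1 (0.36, adjusted p = 0.0184) and Bak1 (0.74, adjusted p = 0.0458) were higher and Bok was lower (-0.38, adjusted p = 0.0253), with backgrounds of 4.26% higher and 4.52% lower. Among the libraries numbered 3, the ratio to shLuc replicate 3 was 0.994 in shHdac1 and 0.917 in shHdac2 for Bak1, and 0.912 and 0.919 in the same order for Mcl1, so neither gene was higher there. For Bok it was 0.888 in shHdac1, in the called direction, and 1.01 in shHdac2. For Bcl2l2 in shHdac1 it was 1.16, in the called direction, and for Bcl2l1 in shHdac2 it was 0.959. Without replicate 3 of every hairpin group, a setting chosen after seeing the data, 5 of 7 genes were called in each knockdown, which adds Bcl2 (log2 0.17 in shHdac1 and 0.22 in shHdac2) to the genes above, and so were 21.6% of all genes higher and 22.5% lower in shHdac1 and 22.5% higher and 21.7% lower in shHdac2. Those fits take their spread from replicates 1 and 2 only, the libraries that lie close to each other.

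**Figure D4:**
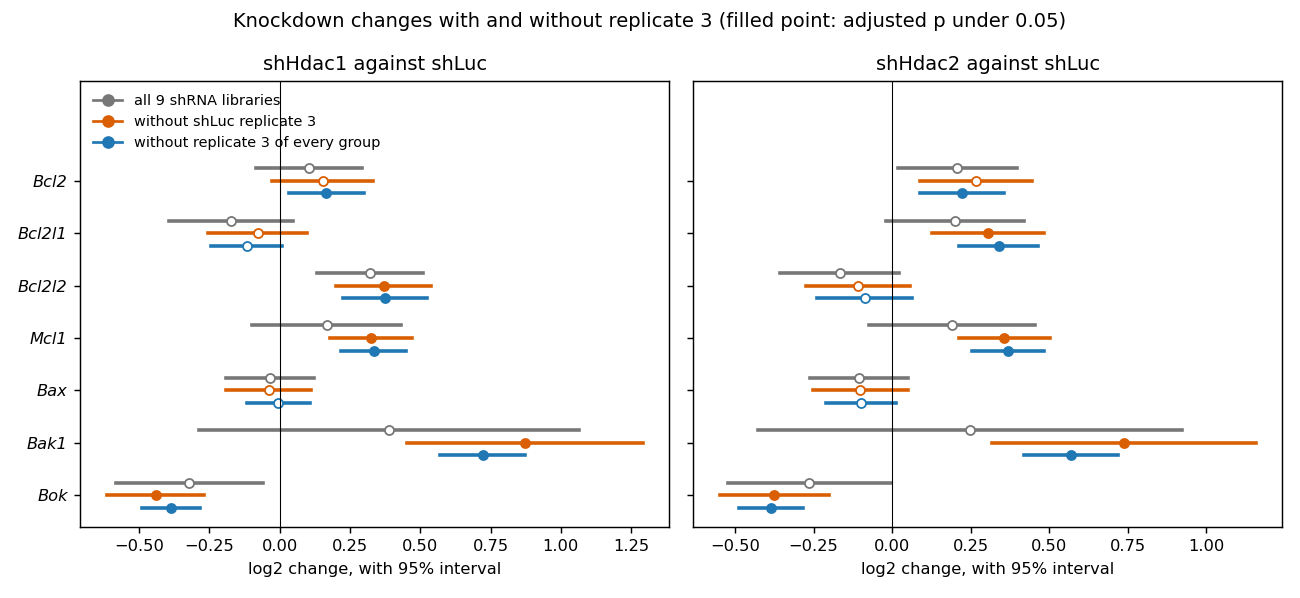
Log2 change with its 95% interval (edgeR) of the 7 genes in shHdac1 (left) and shHdac2 (right) against shLuc, from all 9 hairpin libraries, without shLuc replicate 3, and without replicate 3 of every group, where a filled point has an adjusted p under 0.05. No point is filled with all 9 libraries, and Bak1 in shHdac1 stands at 0.39, 0.87 and 0.72 in the 3 settings.

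The only call on the 7 genes in the hairpin comparisons with all 9 libraries came between the knockdowns, for the survival gene Bcl2l2. It had 50.04, 47.6 and 48.5 CPM in shHdac1, 36.9, 33.3 and 33.6 CPM in shHdac2 and 37.6, 37.4 and 41.8 CPM in shLuc. All shHdac1 libraries were above all others, and shHdac2 did not overlap shLuc either, on the lower side. In shHdac1 against shHdac2, 1 gene of 7 was called, higher in shHdac1 (log2 0.49 ± 0.08, fold 1.40, adjusted p = 0.0220), where 0.889% of all genes were called higher and 1.17% lower. The direction held in all 16 alternatives. The call was lost in 6 of them: without shHdac1 replicate 1 or 2, without any 1 of the shHdac2 libraries, and in the fit of all 21 libraries (adjusted p from 2.35e-05 to 0.331 over the 16). Against shLuc, the log2 change of Bcl2l2 was 0.32 in shHdac1 (adjusted p = 0.145) and -0.17 in shHdac2 (adjusted p = 0.376).

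Bcl2l1, another survival gene, had the opposite sign. It had 84.9, 81.0 and 89.9 CPM in shHdac1, 107, 119 and 105 CPM in shHdac2 and 88.7, 90.3 and 109 CPM in shLuc. ShHdac1 and shHdac2 did not overlap, and the log2 change of -0.37 ± 0.10 missed the threshold (adjusted p = 0.0954). It passed with scaling by library totals or upper quartile, with DESeq2, in a fit of these 2 groups alone and without replicate 3 of every group (adjusted p from 6.87e-05 to 0.888 over the 16 alternatives). Bcl2, Mcl1, Bax, Bak1 and Bok had log2 changes of -0.10 to 0.14 between the knockdowns, with adjusted p of 0.668 to 0.963. Bax was not called in the hairpin groups, at 84.1, 83.4 and 77.7 CPM in shHdac1, 79.1, 76.3 and 77.2 CPM in shHdac2 and 81.1, 86.0 and 83.6 CPM in shLuc. All shHdac2 libraries were below all shLuc libraries for Bax, and the log2 change of -0.11 did not pass (adjusted p = 0.511).

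Other genes of the mitochondrial pathway were read from 6 lists, also chosen with earlier results of these data known. Of 8 BH3-only genes, 4 were called higher and 1 lower with JNJ at 24 h, and 4 were called higher at 2 h, beside 18.1% of all genes called higher and 15.1% lower at 24 h and 9.11% higher at 2 h. Bmf (log2 1.48 at 24 h, 1.78 at 2 h), Bid (1.15 and 0.66 in that order), Bik (2.80 and 2.16) and Bbc3, which encodes PUMA (1.60 and 1.95), were higher at both times. Bmf, for example, had 59.9, 76.5 and 76.9 CPM in JNJ 24 h and 23.8, 27.8 and 26.0 CPM in DMSO 24 h, with no overlap. Bik, which had the largest log2 change at 24 h of these genes, was at a low level. It had 2.64, 4.34 and 2.82 CPM in JNJ 24 h and 0.572, 0.386 and 0.454 CPM in DMSO 24 h. The 2 h call of Bid was lost in 11 of 15 alternatives (adjusted p up to 0.199), and that of Bik in a fit of the 2 groups alone and without DMSO 2 h replicate 1 (up to 0.0687). Hrk, a BH3-only gene of neurons, named after its value was seen, was the 1 called lower at 24 h (log2 -0.77, adjusted p = 0.00932). The list's median log2 change at 24 h was 0.79, beside 0.01 for all genes tested.

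Of 7 tested genes of the apoptosome and caspase list, 2 were called higher and 2 lower at 24 h (28.6% each, beside 18.1% and 15.1% of all genes). Casp9, the initiator caspase of the apoptosome, was higher (log2 0.92, adjusted p = 0.000972) with 40.8, 47.0 and 48.9 CPM in JNJ 24 h and 24.6, 23.9 and 24.5 CPM in DMSO 24 h. The groups did not overlap. Casp9 was already called higher at 2 h (log2 1.02, adjusted p = 0.00158), a call kept in 15 of 15 alternatives. Casp6 was higher (0.71, adjusted p = 0.0204, a call lost without DMSO 24 h replicate 1 or 3 or JNJ 24 h replicate 2 or 3, where it reached 0.0859) and Casp2 lower (-0.73, adjusted p = 0.00590).

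Of 8 tested genes for factors released from mitochondria and for inhibitors of apoptosis, 2 were called higher at 24 h and 2 lower (25% each, beside 18.1% and 15.1% of all genes). Those higher were Diablo (log2 0.48, adjusted p = 0.0129) and Htra2 (0.87, adjusted p = 0.00996), whose products counter the inhibitor XIAP. Diablo lost its call without DMSO 24 h replicate 1 or JNJ 24 h replicate 3 (adjusted p up to 0.0730). Xiap itself was called lower (-0.99, adjusted p = 0.00325), with 55.2, 49.5 and 48.9 CPM in JNJ 24 h and 104, 93.9 and 111 CPM in DMSO 24 h. It was already called lower at 2 h (log2 -0.70, adjusted p = 0.0399), a call kept in 10 of 15 alternatives. Birc5, which encodes survivin and is best known for its part in mitosis, was the other called lower (-0.72, adjusted p = 0.0296, a call lost in 7 of 15 alternatives, among them without any DMSO 24 h library or JNJ 24 h replicate 3). Of 6 outer membrane partners of BAX and BAK, 1 was called (16.7%, beside 15.1% of all genes called lower), the channel gene Vdac3, which was lower (-0.68, adjusted p = 0.0200, lost without DMSO 24 h replicate 3 or JNJ 24 h replicate 1 or 2). Vdac2, which binds BAK in the membrane, had a log2 change of -0.13 (adjusted p = 0.670).

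Of 9 genes that act on the turnover of MCL1 protein, 1 was called higher and 2 lower at 24 h (11.1% and 22.2%, beside 18.1% and 15.1% of all genes). Usp13, a deubiquitinase that stabilises MCL1 in human cells, was lower (log2 -1.82, adjusted p = 0.000178), with 25.4, 18.0 and 16.1 CPM in JNJ 24 h and 71.8, 61.7 and 79.5 CPM in DMSO 24 h, and no overlap. The kinase gene Gsk3a was lower (-0.51, adjusted p = 0.0434, lost in 10 of 15 alternatives, among them without any 1 of the 6 libraries), and Trim17, a ubiquitin ligase gene with about 1 CPM or less in every JNJ 24 h library, was higher (1.67, adjusted p = 0.0401, lost in 6 of 15, among them without DMSO 24 h replicate 2 or 3 or any JNJ 24 h library). Of 9 other BCL2-like genes, 3 could be tested, and Bcl2l12 (-0.46), Bcl2l13 (-0.06) and Bcl2l15 (0.28) did not pass. In the knockdowns, shHdac2 had Hrk (0.58, adjusted p = 0.0484) and Apaf1, the apoptosome scaffold (0.54, adjusted p = 0.0190), called higher than shLuc. These were 1 of 8 BH3-only genes and 1 of 7 tested apoptosome and caspase genes, beside 0.654% of all genes called higher. In shHdac2, Hrk lost its call in 8 of 16 alternatives and Apaf1 in 7, both without shLuc replicate 1 or 2 or any shHdac2 library. In shHdac1 neither was called against shLuc, though both were higher without overlap: Hrk by 0.33 (adjusted p = 0.270) and Apaf1 by 0.37 (adjusted p = 0.0826).

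Levels of other cell types' markers moved beside these changes in places. The 3 fibroblast markers summed to 8.73 to 24.9 CPM in JNJ 24 h and 3.35 to 4.58 CPM in DMSO 24 h. The rise came from Col1a1, with means of 17.2 CPM in JNJ 24 h and 0.863 CPM in DMSO 24 h. Col3a1 went the other way, at 0.748 and 3.22 CPM in that order, and Dcn was at 0.03 and 0.00946 CPM. The 3 astrocyte markers summed to 3.13 to 6.81 CPM in JNJ 24 h and 7.12 to 9.65 CPM in DMSO 24 h. That fall came from Gfap, with means of 4.3 CPM in JNJ 24 h and 8.44 CPM in DMSO 24 h. Aldh1l1, at 0.452 and 0.101 CPM in that order, and Aqp4, at 0.0891 and 0.0715 CPM, were low and did not fall. The summed granule lineage and hedgehog markers did not overlap in any comparison with a control. Beside the 24 h values above, the sum was 762 to 1214 CPM in JNJ 2 h and 1478 to 1542 CPM in DMSO 2 h. It was 1238 to 1323 CPM in shHdac1, 1238 to 1328 CPM in shHdac2 and 1391 to 1576 CPM in shLuc. Atoh1 fell with the sum, with means of 222 CPM in JNJ 24 h and 474 CPM in DMSO 24 h, but not every marker did. Ptch1 averaged 86.3 CPM in JNJ 24 h and 85.9 CPM in DMSO 24 h. In the hairpin groups Ptch1 was higher with knockdown, at 191 CPM in shHdac1, 143 CPM in shHdac2 and 120 CPM in shLuc. Gli1 averaged 132 CPM in JNJ 2 h and 133 CPM in DMSO 2 h, and Neurod1 86.8 CPM in shHdac2 and 62.8 CPM in shLuc. In the hairpin groups the astrocyte sum was 8.11 to 54.8 CPM in shHdac1, 6.08 to 29.6 CPM in shHdac2 and 15.2 to 16.4 CPM in shLuc, most of it Gfap. Their part in the results on the 7 genes was not tested. Bak1 lies over an antisense neighbour, Ggnbp1, which had 0 to 15 counts in a library. In GENCODE, Bcl2l2 and Bax overlap protein-coding genes on their own strand, Gm20521 and Gm45808 in that order. The counts do not list these genes, and how reads from the shared stretches were assigned is not known.

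The genes whose log2 CPM was most like that of each of the 7 over the 21 libraries, among 10309 genes, are a description, since libraries share groups and treatments. For Bok they were Cdt1 (Pearson r = 0.946, Spearman rho = 0.549) and Mcm3 (r = 0.939, rho = 0.323), both of DNA replication licensing, and without the JNJ 24 h libraries r was 0.565 and 0.167, so the likeness rests on those 3 libraries. For Bak1 they were Nme4 (r = 0.940) and Phf2 (r = 0.937), with r of 0.918 and 0.898 without JNJ 24 h. For Mcl1 they were Ythdf2 (r = 0.952) and Ywhaz (r = 0.946), for Bax Itgb1bp1 (r = 0.917) and Rnf187 (r = 0.900), for Bcl2 Myh10 (r = 0.900) and Gigyf2 (r = 0.899), for Bcl2l1 Tsnax (r = 0.867) and Ccser1 (r = 0.849), and for Bcl2l2 Nedd1 (r = 0.905) and Uhrf2 (r = 0.904). Among the 7 themselves, Mcl1 and Bak1 were most alike (r = 0.708), then Bak1 and Bok (r = 0.596), and Bax and Bok least (r = -0.383).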

How the data were processed

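RNA-seq libraries of SMB21 cells were grouped by their labels into 7 groups of 3. The deposited values are raw read counts per gene symbol; per the submitters' processing notes the authors aligned reads with STAR 2.5.1b to mm9. Annotation, strand setting and the handling of multi-mapping reads were not given in the sources used here. From these counts, the 12 JNJ and DMSO and the 9 hairpin libraries were fitted apart with edgeR 4.0.16 (R 4.3.3): filterByExpr (minimum count 10, minimum total 15; 14467 and 13612 genes kept), TMM scaling, and two-sided quasi-likelihood tests on group alone, with Benjamini-Hochberg adjustment over all genes tested. Reads per library (23094799 to 39341784) set the counting precision. Printed CPM use TMM factors over all 21 libraries (0.860 to 1.16); per-kilobase levels use GENCODE exon lengths, not the authors' annotation. Gene names follow a rule: the 7 genes, called genes of 6 pathway lists (at most 4 per list and comparison) and the 2 genes most correlated with each. Results for some listed genes are not reported here. Members and lists were chosen with earlier results of these data known. Same-numbered libraries met a pairing rule where residuals of every pair correlated above 0.1. This held at 24 h (0.621 to 0.678) and for the hairpins (0.249 to 0.797), though there replicate 1 also correlated with replicate 2. The calls did not use this pairing. The replicate block was fitted over all 12 JNJ and DMSO libraries, with the 2 h libraries that did not meet the rule, so no paired test of the 24 h libraries alone was run. Alternatives were RLE, library totals, upper quartile, no filter, DESeq2 1.42.0, limma-voom (limma 3.58.1), a replicate block, only the groups compared, all 21 libraries in 1 fit and each library left out. The edgeR test was tested on simulated data in which only 100 genes at each of 2 sizes were changed, of 14467 or 13612 genes. For JNJ 24 h against DMSO 24 h, it recovered 26 of 100 genes with a true log2 change of 1 in size. At a size of 2 it recovered 71 of 100. For shHdac1 against shLuc it recovered 58 and 86 of 100 in that order. False calls were 5.83% of calls in the first comparison and 4% in the second. In the data 4791 genes were called in the first comparison, and the adjustment is less strict where more genes change. The recovered shares therefore do not give the power of that test in the data. A gene that was not called may still have changed.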

Additional observations from a re-analysis of the deposited data

Results flagged for a closer look

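The JNJ effect on Bok differed between the times: the log2 change at 24 h minus that at 2 h was -1.396, tested as an interaction within 1 edgeR fit (adjusted p = 0.04996). The log2 changes themselves were -1.70 at 24 h and -0.30 at 2 h. Under 20 alternatives the difference ran from -1.71 to -1.15 and kept its direction, and it did not pass under 12 of them.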

How the results depend on the processing

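The falls of Bok and Bak1 at 24 h passed under all 15 alternatives (2 to 3 of the 7 genes called). Genes called at 2 h were 1982, and 3455 with a replicate block, 650 from the 2 groups alone, 3185 from all 21 libraries and 1043 to 3365 with 1 library left out; of the 7 genes, 1 was called with upper quartile scaling (Mcl1), 2 with the block (Mcl1, adjusted p = 0.0132, and Bak1, adjusted p = 0.0141), 1 from all 21 libraries and 0 to 1 with 1 library left out. For the difference between times, genes called were 614, and 2132 with the block, 1503 by DESeq2, 1722 from all 21 libraries and 145 to 1156 with 1 left out; of the 7, 0 with library totals or upper quartile and 0 to 1 with 1 left out. DMSO 24 h against DMSO 2 h gave 2 genes without a filter, 108 with the block, 16 by DESeq2, 2 by limma-voom and 0 to 44 with 1 left out. ShHdac1 against shLuc gave 102 genes, and 523 with the block, 561 by DESeq2, 5 from the 2 groups alone, 8 from all 21, 2 to 1512 with 1 left out and 6045 without replicate 3 of every hairpin group (added after seeing the data); of the 7, 1 by DESeq2, 0 to 4 with 1 left out and 5 without replicate 3. ShHdac2 against shLuc gave 229, and 801, 819, 19, 27, 12 to 1212 and 6052 in that order; of the 7, 0 to 4 and 5. ShHdac1 against shHdac2 gave 280, and 886, 842, 603, 76, 30 to 272 and 4874; of the 7, 2 with library totals, upper quartile, DESeq2 or the 2 groups alone, 0 from all 21, 0 to 1 with 1 left out and 2 without replicate 3. The cause of these shifts was not tested. Replicate numbers did not meet the pairing rule at 2 h (same-number correlations of 0.0468 to 0.677) or between the DMSO groups (-0.204 to 0.582), and with the block no other call on the 7 genes changed. Upper quartile scaling took the share of calls that were higher at 2 h to 54.5%, against 66.5%; library totals and upper quartile took it to 68.3% and 63.8% at 24 h, against 54.5%, and to 79.9% and 81.8% for the difference, against 59.1%, with a median log2 of all genes of 0.17 and 0.12 at 24 h, against 0.01.

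Sign changes touched only log2 changes that were not called. Without a filter, Bcl2 at 24 h turned to -0.016, with the block to -0.0032 and from all 21 libraries to -0.0071. With library totals, Bcl2l1 in DMSO 24 h against DMSO 2 h turned to 0.077. Bok in shHdac1 against shHdac2 turned to 0.00051 without replicate 3 of every group. Leaving out 1 library at a time, the log2 change ran from -0.41 to 0.027 for Bcl2 at 2 h, from -0.13 to 0.10 for Bcl2 and from -0.074 to 0.50 for Bcl2l1 at 24 h, from -0.033 to 0.41 for Bcl2 in the difference between times, and from -0.16 to 0.16 for Bcl2l1 between the DMSO groups. It ran from -0.054 to 0.0029 for Bax in shHdac1 against shLuc, and in shHdac1 against shHdac2 from -0.046 to 0.0062 for Mcl1 and from -0.011 to 0.30 for Bak1.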
